A study of Mus musculus with 8 samples.

Results

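7 genes of MHC class II presentation were followed in RNA sequencing data from mouse microvascular cells with and without endothelial LRP1, a receptor that takes up lipoproteins and many other ligands. They are H2-Aa, H2-Ab1, H2-Eb1, H2-DMa, H2-DMb1, Cd74 and Ciita, chosen by name, and all 7 were found among the 22520 genes of the deposited table. The labels give 4 wild-type (WT) and 4 LRP1 KO libraries, each a mix of heart, liver and lung microvascular cells from C57BL/6 mice at postnatal day 14. The paper speaks of separate liver and heart-lung preparations, so which organs each library holds is uncertain, and the labels were followed. According to the study's methods, all mice carried the floxed Lrp1 alleles (LRP1 f/f), WT mice were littermates without Cre (Cdh5-CreER-/-) and LRP1 KO mice were Cdh5-CreER+/-, with an inducible Cre driven by the Cdh5 promoter. PECAM-1 antibody beads were used to select the cells. Since Cre was present in LRP1 KO alone, an effect of Cre cannot be told apart from the deletion. The labels do not say which libraries came from separate animals, so the p-values below measure the spread between libraries only.

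MHC class II molecules display peptides from ingested protein to CD4+ T cells. The alpha and beta chains (H2-Aa with H2-Ab1, and H2-Eb1 with an E alpha chain) assemble in the endoplasmic reticulum around the invariant chain CD74, which fills the peptide groove and directs the complex to endosomes. There cathepsins cut the invariant chain down to the CLIP fragment, and H2-DM, made of H2-DMa and H2-DMb1, exchanges CLIP for antigen peptide. Transcription of these genes depends on CIITA, a coactivator that binds no DNA itself but docks on factors bound to the X and Y boxes of the promoters. Dendritic cells, B cells and macrophages carry class II constitutively, and endothelial cells can be induced by interferon gamma. C57BL/6 mice lack a functional E alpha chain, and the gene for it was not analysed here.

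None of the 7 genes differed between LRP1 KO and WT beyond the spread between libraries. H2-DMb1, the beta chain of the peptide exchanger, was the most abundant at a mean of 15.3 FPKM (fragments per kilobase, a level corrected for transcript length and library size) in WT and 12.5 FPKM in LRP1 KO. H2-DMa was near 2 FPKM, whereas H2-Ab1, H2-Eb1, Cd74 and H2-Aa had means of 1.21 FPKM or less in both groups and Ciita was at or almost at 0. The genes for the peptide-binding chains and the invariant chain were thus measured at low levels, next to cathepsin S and macrophage genes that rose in LRP1 KO.

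X and Y boxes are the known landmarks of class II promoters, so the stretch before the start site is given for those with a match within 130 bases of it. RefSeq promoter windows (GRCm38.p6, 250 bases before to 50 after the start) were at hand for H2-DMa, H2-DMb1, H2-Aa and H2-Eb1, and for the related H2-DMb2. They were searched on both strands for an X box core (ACNGATG) and a Y box core (ATTGG), and for the pair in one orientation with 15 to 30 bases between them. In the sequences below, capitals mark the cores of a pair or, in H2-Aa, the Y core.
H2-Eb1: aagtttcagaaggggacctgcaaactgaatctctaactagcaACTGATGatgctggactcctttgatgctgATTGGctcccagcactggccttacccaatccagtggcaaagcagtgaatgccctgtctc
H2-DMb2: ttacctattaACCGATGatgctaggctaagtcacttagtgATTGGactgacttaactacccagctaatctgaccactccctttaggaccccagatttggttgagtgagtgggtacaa
H2-DMb1: acctagtaACTGATGatgctaggctgattc
H2-Aa: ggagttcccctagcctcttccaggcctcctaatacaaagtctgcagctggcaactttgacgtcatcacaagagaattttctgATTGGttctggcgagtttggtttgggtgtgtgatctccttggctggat

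These stretches lie at chr17:34305737-34305866 (+ strand, H2-Eb1), chr17:34145119-34145235 (+ strand, H2-DMb2), chr17:34153092-34153121 (+ strand, H2-DMb1) and chr17:34287824-34287953 (- strand, H2-Aa). The H2-DMb1 stretch is limited to 30 bases around the X core because GENCODE M21 places the first exon of this gene further upstream, so that the core falls within it. H2-DMb1 held the X core 91 bases and the Y core 61 bases before the RefSeq start, with 23 bases between them. In H2-Eb1 the cores began 88 and 59 bases before the start, with 22 bases between, and a further Y core outside the pair lay on the other strand at 35 bases (in lower case above). H2-DMb2 had the same spacing as H2-DMb1, 23 bases, with cores 120 and 90 bases before the start. H2-Aa held a Y core 48 bases before the start and an X core on the other strand, 232 bases before, so no pair by this rule. Of the 2 windows of H2-DMa, 1 held a Y core 198 bases before its start and the other held neither core, so there was no pair in either.

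Among all 32851 promoter windows, 9.85% held the X core, 37.4% the Y core and 0.137% the pair. The windows with a pair belonged to 43 genes, which included 5 of the genes examined here, H2-DMb1, H2-Eb1, H2-DMb2, H2-Eb2 and H2-D1. The letters did not go with one level of expression, as H2-DMb1 at 15.3 FPKM and H2-Eb1 at 0.534 FPKM in WT both held the pair.

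**Figure D1:**
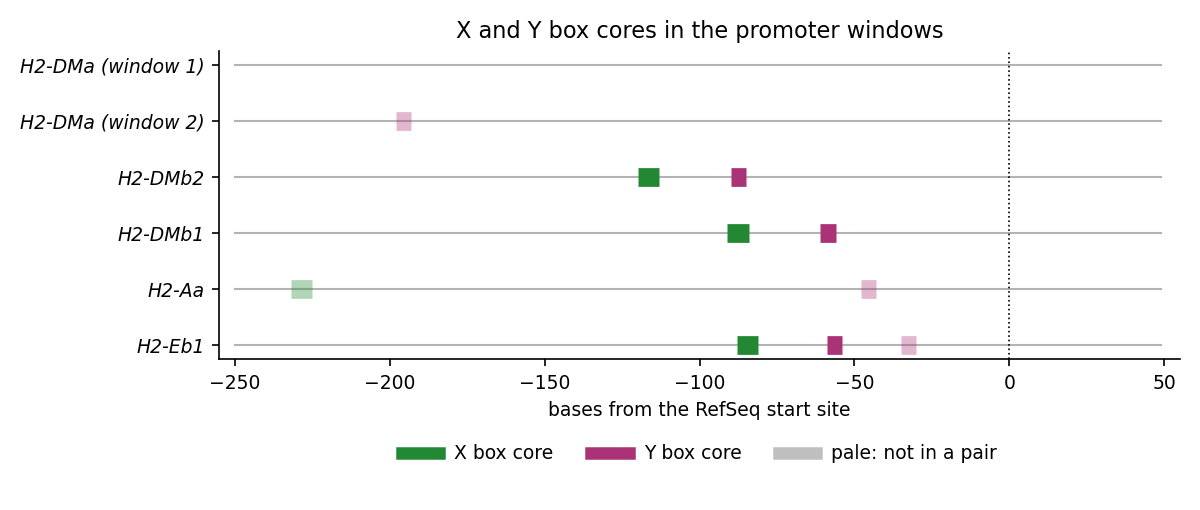
Positions of X box cores (green) and Y box cores (purple) along 6 RefSeq promoter windows, in bases from the start site (dotted line), with pale boxes for cores outside a pair. H2-DMb2, H2-DMb1 and H2-Eb1 each hold a pair, with the X core 120, 91 and 88 bases before the start.

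H2-DMb1 (ENSMUSG00000079547, chromosome 17, 34153072 to 34160230, + strand), in libraries 1 to 4 of each group, had FPKM values of 18.8, 16.5, 13.5 and 12.3 (WT) against 11.9, 12.3, 10.8 and 15.2 (LRP1 KO). WT libraries 1 and 2 were the highest and LRP1 KO library 3 the lowest, but the groups overlapped because LRP1 KO library 4 exceeded WT libraries 3 and 4. The means were 15.3 ± 2.93 and 12.5 ± 1.86 FPKM (SD, n = 4 each), and the difference on the log2(FPKM + 1) scale was -0.26 (95% interval -0.56 to 0.05, limma adjusted p 0.220). The interval corresponds to 0.676 to 1.04 times the WT level of FPKM + 1. The estimate was -0.51 with the level of macrophage genes as a covariate, -0.08 with that of endothelial genes and -0.16 without WT library 1 (limma adjusted p 0.306, 0.922 and 0.438). An exact two-sided permutation test, whose smallest possible p is 0.0286 with 4 libraries against 4, gave p = 0.143. Of the 50-base stretches of the H2-DMb1 transcript, 27.2% also occur in H2-DMb2, so reads could have been shared between these copies.

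H2-DMa (ENSMUSG00000037649, chromosome 17, 34119541 to 34139101, + strand) encodes the partner chain and had FPKM values of 2.0, 2.83, 1.97 and 1.83 (WT) against 2.26, 2.50, 2.65 and 2.30 (LRP1 KO). WT library 2 was the highest of all 8 libraries, while the other 3 WT libraries lay below every LRP1 KO library. The means were 2.16 ± 0.454 and 2.43 ± 0.184 FPKM (SD, n = 4 each), with a log2 difference of 0.13 (95% interval -0.11 to 0.36, limma adjusted p 0.426), and an exact two-sided permutation p of 0.257. Without WT library 2 the estimate was 0.22 and without WT library 4 it was 0.08 (limma adjusted p 0.143 and 0.670). Part of H2-DMa, 3094 bases, is overlapped by Brd2 on the opposite strand, and whether strand was used in the quantification is not given in the sources used here.

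H2-DMa and H2-DMb1 alone among the members had at least 1 FPKM in at least 4 libraries and so entered the test across 11389 genes. Neither was called by limma at an adjusted p under 0.05, against 13.6% of all tested genes (6.27% higher and 7.31% lower in LRP1 KO). With a log2 difference of at least 1 required as well, 1.62% of tested genes were called and neither member was. At an unadjusted p under 0.05 there were 0 of the 2, against 3838 of the 11389. All 7 members had overlapping groups. The share without overlap was 19.6% over the tested genes, which include only 2 of the members. With so few members these counts of 0 are no departure from the shares over all tested genes. The other 5 members are described by their values and the exact test, and by an interval from the limma fit to all 18026 genes with a value above 0.

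H2-Ab1 (ENSMUSG00000073421, chromosome 17, 34257689 to 34269419, + strand), the beta chain of the I-A molecule, had FPKM values of 0.633, 1.11, 0.837 and 0.811 (WT) against 0.946, 1.61, 0.632 and 1.66 (LRP1 KO). LRP1 KO libraries 2 and 4 were above every WT library, and LRP1 KO library 3 was the lowest of all 8. The means were 0.849 ± 0.199 and 1.21 ± 0.506 FPKM (SD, n = 4 each). The log2 difference of 0.24 had a 95% interval of -0.16 to 0.63 (limma adjusted p 0.408 without a filter; exact two-sided permutation p = 0.286). With the level of macrophage genes as a covariate the estimate turned to -0.63 (limma adjusted p 0.106), while it was 0.53 with the endothelial covariate and 0.40 with a pseudocount of 0.1. Without LRP1 KO library 2, 3 or 4 it was 0.15, 0.37 or 0.14.

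H2-Aa (ENSMUSG00000036594, chromosome 17, 34282744 to 34287823, - strand), the alpha chain that pairs with H2-Ab1, had FPKM values of 0.0614, 0.219, 0 and 0.0441 (WT) against 0.329, 0.115, 0.164 and 0.162 (LRP1 KO). WT libraries 1, 3 and 4 lay below every LRP1 KO library, and WT library 2 lay above 3 of them. The means were 0.0812 ± 0.0956 and 0.192 ± 0.0938 FPKM (SD, n = 4 each). The log2 difference was 0.14 (95% interval -0.03 to 0.31, limma adjusted p 0.257 without a filter; exact two-sided permutation p = 0.114). At this level the size depends on the pseudocount, and with 0.1 in place of 1 the difference was 0.77 (limma adjusted p 0.203). It was 0.06 with the endothelial covariate and 0.09 without LRP1 KO library 1. H2-Aa was below H2-Ab1 in every library.

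H2-Eb1 (ENSMUSG00000060586, chromosome 17, 34305867 to 34316674, + strand) had the narrowest WT range apart from Ciita, at 0.570, 0.550, 0.483 and 0.531 FPKM. In LRP1 KO it was listed at 0.383, 0.639, 0.512 and 0.572 FPKM, so that the highest and the lowest of the 8 values were both LRP1 KO libraries. The means were 0.534 ± 0.0376 and 0.526 ± 0.109 FPKM (SD, n = 4 each). The log2 difference was -0.01 (95% interval -0.13 to 0.11, limma adjusted p 0.932 without a filter; exact two-sided permutation p = 0.886), and its sign turned with the endothelial covariate and without WT library 1 or LRP1 KO library 1. An antisense gene, Gm20513, overlaps 2204 bases of H2-Eb1.

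Cd74 (ENSMUSG00000024610, chromosome 18, 60803848 to 60812652, + strand), the invariant chain, had FPKM values of 0.283, 0.164, 0.197 and 0.373 (WT) against 0.591, 0.351, 0.410 and 0.126 (LRP1 KO). LRP1 KO libraries 1 and 3 were above every WT library, and LRP1 KO library 4 was the lowest of all. The means were 0.254 ± 0.0937 and 0.369 ± 0.192 FPKM (SD, n = 4 each), with a log2 difference of 0.12 (95% interval -0.12 to 0.36, limma adjusted p 0.507 without a filter; exact two-sided permutation p = 0.371). The estimate turned to -0.12 with the level of endothelial genes as a covariate and was 0.45 with that of macrophage genes (limma adjusted p 0.747 and 0.249). It was 0.33 with a pseudocount of 0.1, 0.04 when LRP1 KO library 1 was left out and 0.21 when LRP1 KO library 4 was (limma adjusted p 0.569, 0.828 and 0.112). The library that was highest in H2-Ab1, LRP1 KO library 4, was thus the lowest in Cd74.

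Ciita (ENSMUSG00000022504, chromosome 16, 10480059 to 10528418, + strand), the coactivator of the class II promoters, was listed at 0 in all 4 WT libraries and in LRP1 KO libraries 2 and 4. In LRP1 KO libraries 1 and 3 it was listed at 0.000754 and 0.000573 FPKM. No fold is given for such values (exact two-sided permutation p = 0.429). Ciita overlaps Dexi on the opposite strand over 25888 bases. None of 12 housekeeping genes was listed at 0 in any library, but these are broadly expressed genes, so this does not bear on a 0 for a weakly expressed gene. The number of reads behind the values is unknown, so a limit of detection cannot be given.

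The order of the mean levels was the same in both groups, H2-DMb1, H2-DMa, H2-Ab1, H2-Eb1, Cd74, H2-Aa and Ciita, on the FPKM scale, which is corrected for transcript length. In WT the ranges of neighbours in this order were separate down to Cd74, and those of Cd74 and H2-Aa, and of H2-Aa and Ciita, overlapped. In LRP1 KO the ranges of H2-Ab1 and H2-Eb1, of H2-Eb1 and Cd74, and of Cd74 and H2-Aa overlapped. The mean of H2-DMb1 was 7.07 times that of H2-DMa in WT and 5.17 times in LRP1 KO. Set against the whole table, the WT mean of H2-DMb1 was above that of 78.8% of genes, H2-DMa above 54.6%, H2-Ab1 above 48.8%, H2-Eb1 above 46.5%, Cd74 above 42.8% and H2-Aa above 37.7%. In these terms H2-DMb1 was a well expressed gene, and the peptide-binding chains were in the lower part of a table in which 4494 genes were at 0 in every library.

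The other class II genes were also low. H2-DMb2, the second H2-DM beta gene, ranged from 0.342 to 0.643 FPKM in WT and from 0.199 to 0.434 FPKM in LRP1 KO, with overlapping groups. H2-Oa and H2-Ob, the chains of the H2-DM inhibitor H2-O, were at 0 in all libraries but 1 each, at 0.0650 FPKM in WT library 1 and 0.0105 FPKM in LRP1 KO library 3. H2-Eb2 was listed at 0 in all 8 libraries. None of these 4 genes passed the filter.

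Along the class II region of chromosome 17, genes of class I presentation lie between the H2-DM genes and H2-Ab1. Tap1, a subunit of the transporter that carries peptides into the endoplasmic reticulum, had FPKM values of 9.45, 8.03, 6.46 and 7.10 (WT) against 9.20, 11.9, 10.6 and 12.4 (LRP1 KO). It rose by 0.46 on the log2 scale (SE 0.12, limma adjusted p 0.0372), although LRP1 KO library 1 lay below WT library 1. Psmb8, a subunit of the immunoproteasome, had FPKM values of 7.62, 7.80, 5.69 and 5.12 (WT) against 8.81 to 13.9 (LRP1 KO), with every LRP1 KO library above every WT library. It rose by 0.61 (SE 0.16, limma adjusted p 0.0344).

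**Figure D2:**
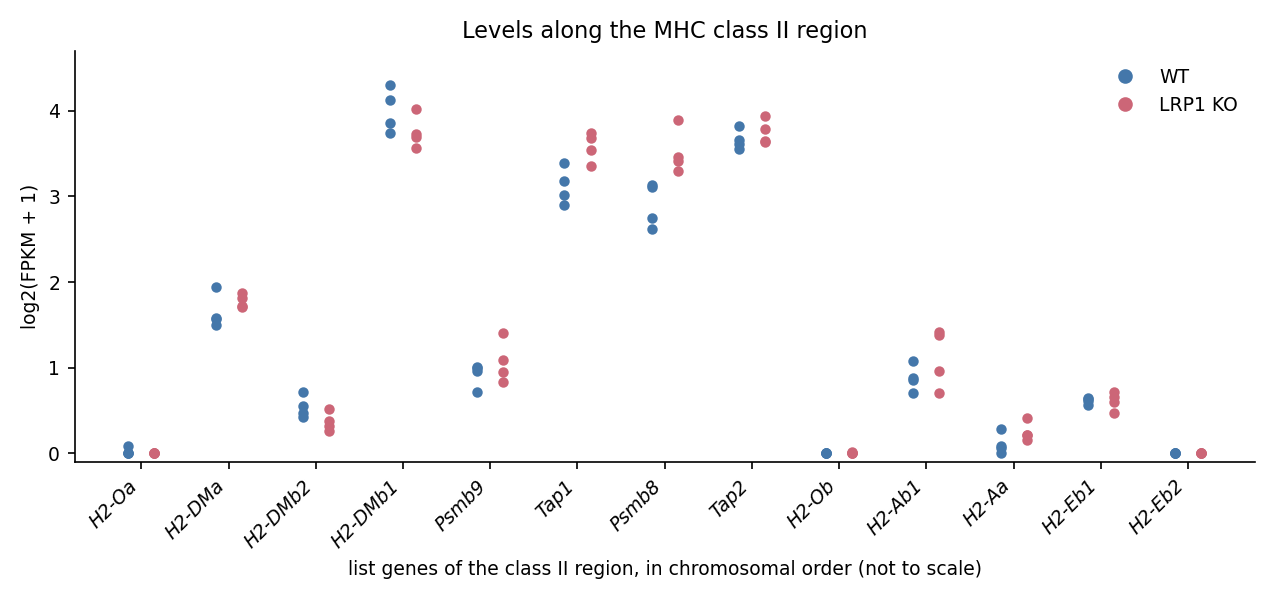
log2(FPKM + 1) of 13 genes of the class II region in chromosomal order, not to scale, with 1 point per library (WT in blue, LRP1 KO in red). H2-DMb1, Tap1, Psmb8 and Tap2 stand highest, the 4 LRP1 KO points of Psmb8 lie above the 4 WT points, and H2-Oa, H2-Ob and H2-Eb2 lie at or near 0.

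The class I list as a whole had 12 genes tested, of which 4 rose and 0 fell, with a median log2 difference of 0.12 against -0.01 over all tested genes. The share called was 33.3%, beside 13.6% over all tested genes. B2m, the light chain of class I molecules, was at 768 to 850 FPKM in WT and 1070 to 1250 FPKM in LRP1 KO, and rose by 0.48 (SE 0.07, limma adjusted p 0.00397). H2-D1, a class I heavy chain, was at 96.3 to 138 FPKM in WT and 140 to 178 FPKM in LRP1 KO, and rose by 0.47 (SE 0.11, limma adjusted p 0.0283). The groups of B2m and of H2-D1 did not overlap. B2m held its call without any 1 library. Among the 8 fits without 1 library, H2-D1 held it only without WT 2, LRP1 KO 1 or LRP1 KO 4 (0.40 to 0.57 over the 8), Tap1 only without WT 1, LRP1 KO 1 or LRP1 KO 4 (0.39 to 0.55) and Psmb8 only without WT 1 or LRP1 KO 4 (0.49 to 0.69). With the level of macrophage genes as a covariate all 4 calls were lost (adjusted p from 0.0623 for B2m to 0.814 for H2-D1). The estimates were then 0.56 for B2m, 0.38 for Psmb8, 0.35 for Tap1 and 0.09 for H2-D1. This covariate did not overlap between the groups (1.363 to 1.695 in WT, 2.078 to 2.976 in LRP1 KO) and so shares much of the group difference. The median SE over all tested genes was 0.190 with it and 0.088 without it. The cause of the lost calls was not tested. With the endothelial covariate B2m kept its call and the other 3 lost it, at 0.64 for H2-D1, 0.64 for Tap1 and 0.89 for Psmb8.

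The enzymes that prepare antigen and cut the invariant chain were examined next. Of 9 genes, 8 were tested, 1 rose and 0 fell (12.5%, close to the background of 13.6%), with a median log2 difference of 0.09. The gene that rose was Ctss, cathepsin S, which makes the last cuts of the invariant chain in many antigen-presenting cells. It had FPKM values of 4.0, 7.06, 6.39 and 6.48 (WT) against 37.5, 63.9, 30.7 and 53.9 (LRP1 KO). Every LRP1 KO library was several times above every WT library, and the rise was 2.73 (SE 0.23, limma adjusted p 0.000449). The call held in all 15 alternative settings, with adjusted p up to 0.0388, although the macrophage covariate lowered the estimate to 1.5. Cathepsin L (Ctsl), which has this role in thymic epithelium, was at 850 to 1198 FPKM in WT and 964 to 1055 FPKM in LRP1 KO and differed by 0.03 (limma adjusted p 0.842). The thiol reductase gene Ifi30 was at 49.9 to 61.5 and 47.1 to 59.1 FPKM (log2 difference -0.07, limma adjusted p 0.590). March1, a ubiquitin ligase that removes class II from the cell surface, was below the filter at 0.0185 to 0.0430 FPKM in WT and 0.127 to 0.235 FPKM in LRP1 KO, with separate groups (exact two-sided permutation p = 0.0286). In the fit without a filter it was called (limma adjusted p 0.0219). Ctsl, Ifi30 and March1 were chosen for mention after their values were seen.

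The factors that bind the class II promoters were all expressed. Of the 7 genes, all tested, 1 fell and 0 rose, with a median log2 difference of -0.07. That share, 14.3%, is close to the 13.6% called over all tested genes and is no result about these factors. The gene that fell was Rfxank, a subunit of the RFX complex on the X box. It had FPKM values of 2.69, 2.92, 2.24 and 2.37 (WT) against 1.76, 1.65, 1.83 and 2.07 (LRP1 KO). All LRP1 KO libraries were below all WT libraries, and the fall was 0.33 on the log2 scale (log2 difference -0.33, SE 0.09, limma adjusted p 0.0424). Among the 8 fits without 1 library the call held only without WT 3 or LRP1 KO 4, with estimates from -0.37 to -0.28, and over all alternatives the adjusted p ran from 0.0190 to 0.529. The other RFX subunits, Rfx5 at 3.50 to 3.86 and 3.08 to 3.58 FPKM and Rfxap at 4.42 to 6.25 and 4.50 to 5.18 FPKM, did not pass (limma adjusted p 0.164 and 0.387, chosen for mention after their values were seen).

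Of the route by which interferon gamma induces Ciita, 11 genes were in the table and 9 were tested, of which 2 rose and 0 fell, with a median log2 difference of -0.00. That share, 22.2%, stands beside 13.6% called over all tested genes, and with 9 genes it is no result about this route. Ifng, the interferon itself, was listed at 0 in all 8 libraries. Among the genes that rose was Spi1, the myeloid factor PU.1 that acts on a Ciita promoter of myeloid cells. It had FPKM values of 0.442, 0.380, 1.14 and 0.840 (WT) against 2.69, 4.60, 1.05 and 3.97 (LRP1 KO). LRP1 KO library 3 lay within the WT range and the other 3 above it, and the rise was 1.19 (SE 0.29, limma adjusted p 0.0318). In WT only library 3 reached 1 FPKM, so Spi1 passed the filter through LRP1 KO, and its test adds little. Without 1 library the call held only without WT 3, LRP1 KO 3 or LRP1 KO 4 (1.0 to 1.49 over the 8 fits), and with the macrophage covariate the estimate was -0.37 (adjusted p 0.485). Ciita stayed at or almost at 0 in the same libraries.

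T cells also read costimulatory and inhibitory ligands. Of 6 such genes 1 was tested, Cd80, a ligand of CD28, with FPKM values of 1.52, 1.28, 1.56 and 1.56 (WT) against 2.37, 2.70, 3.31 and 1.92 (LRP1 KO). The groups were separate and the rise was 0.51 (SE 0.12, limma adjusted p 0.0262). Among the fits without 1 library the call held only without WT 4 or LRP1 KO 4 (0.42 to 0.61 over the 8). It was also lost with the macrophage covariate (0.95, adjusted p 0.0532) and the endothelial covariate (0.35, adjusted p 0.464). Cd40, Cd86 and Cd274, below the filter and mentioned after their values were seen, were also separate, at 0.375 to 0.728 against 0.888 to 1.43 FPKM for Cd40, at 0 in all WT libraries against 0.0296 to 0.0730 FPKM for Cd86, and at 0.513 to 0.760 against 0.766 to 0.984 FPKM for Cd274, which encodes the inhibitory ligand PD-L1 (exact two-sided permutation p = 0.0286 each, the smallest possible with 4 libraries against 4).

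Besides its role with class II, CD74 is a surface receptor for the cytokine MIF, with CD44, CXCR4 and CXCR2 as partners. Of 5 genes 4 were tested, 2 rose and 0 fell, with a median log2 difference of 0.56. Over all tested genes 6.27% rose and 7.31% fell, and with 4 genes the counts are no result about this list. Cxcr4 had FPKM values of 1.29, 1.73, 1.54 and 0.969 (WT) against 7.78, 4.71, 5.18 and 3.15 (LRP1 KO), with no overlap, and rose by 1.34 (SE 0.21, limma adjusted p 0.00583). Cd44 had FPKM values of 7.66, 9.57, 12.4 and 12.1 (WT) against 28.4, 21.5, 29.6 and 14.7 (LRP1 KO), again with no overlap, and rose by 1.08 (SE 0.22, limma adjusted p 0.0170). Without WT library 2 the Cd44 call was lost, at 1.05 (limma adjusted p 0.0568). It was also lost with the endothelial covariate (0.59, adjusted p 0.339) and the macrophage covariate (1.76, adjusted p 0.0553). Cxcr4 lost its call with the macrophage covariate alone (1.77, adjusted p 0.0559), and its estimate was 0.79 with the endothelial covariate. The ligand gene Mif was at 249 to 291 and 243 to 301 FPKM and differed by 0.05 (limma adjusted p 0.673). Ddt, which encodes a second ligand of CD74, was at 39.3 to 44.7 FPKM in WT and 31.9 to 39.2 FPKM in LRP1 KO, with separate groups, and did not pass (-0.24, limma adjusted p 0.0661). Mif and Ddt were mentioned after their values were seen.

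**Figure D3:**
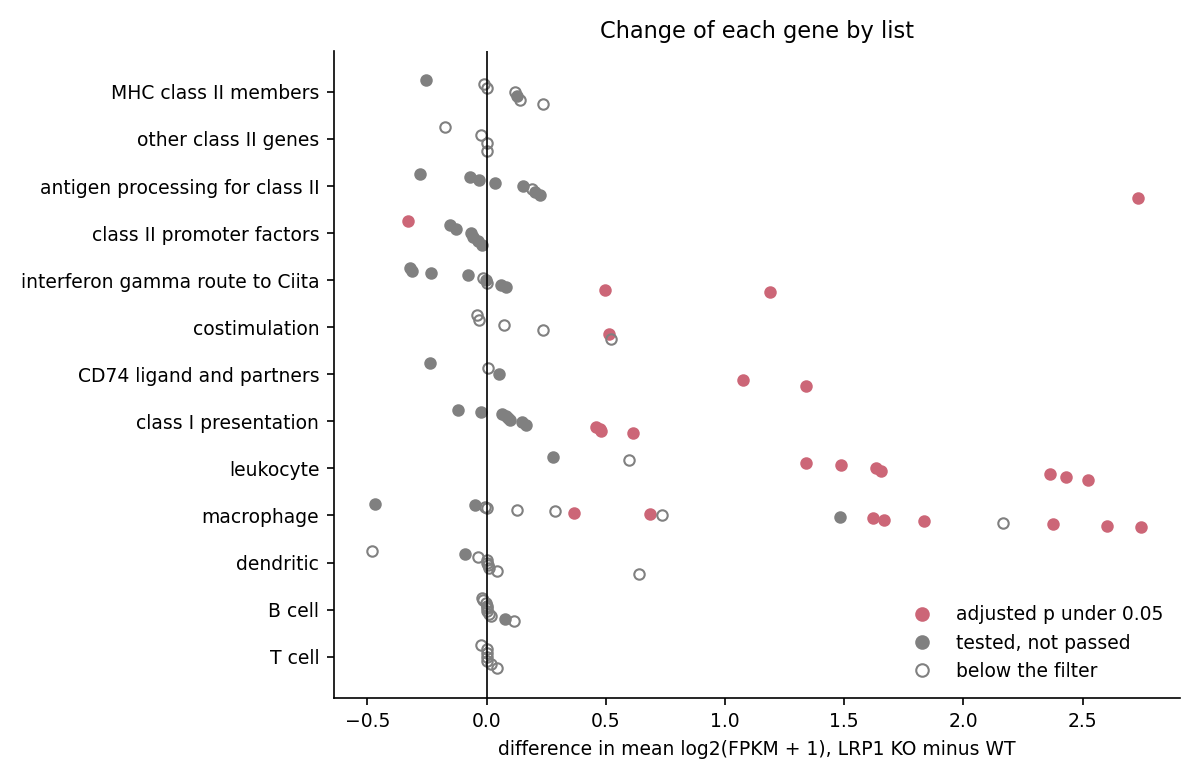
Difference in mean log2(FPKM + 1), LRP1 KO minus WT, of each gene by list, with red points for genes past an adjusted p of 0.05, grey points for tested genes that did not pass and open points for genes below the filter. The class II members lie between -0.26 and 0.24, while Ctss lies at 2.73 and most red points belong to the leukocyte and macrophage markers.

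Markers of the cells that carry class II constitutively were examined beside the members. Of 17 macrophage markers 11 were tested, and 2 of these, Adgre1 and Mrc1, had no WT library at 1 FPKM and so passed the filter through LRP1 KO. Of the other 9, 6 rose and 0 fell, with a median log2 difference of 1.48, while 6.27% of all tested genes rose and 7.31% fell. The summed level of the 17 was 100 to 121 FPKM in WT and 214 to 514 FPKM in LRP1 KO. Of these 9, C1qb, Lyz2, C1qc and Cd68 rose most, by 2.75, 2.60, 2.37 and 1.83 (limma adjusted p 0.00237, 0.00205, 0.00767 and 0.000673). Adgre1, which encodes F4/80, was at 0.126 to 0.475 FPKM in WT and 1.91 to 4.26 FPKM in LRP1 KO and was one of those 2, so that a test of it adds nothing. Csf1r was at 2.78 to 2.93 and 3.04 to 4.61 FPKM (0.37, limma adjusted p 0.0460). Among the 3 tested markers that did not pass were Cd14, with mean FPKM of 37.3 (WT) against 26.9 (LRP1 KO; log2 difference -0.47, limma adjusted p 0.136), and Mertk (-0.05), both mentioned after their values were seen. The rise of the markers that passed went with no call among the class II members. The part of macrophage RNA in the values of the members was not tested, and in such bulk libraries fewer cells of a type and less RNA per cell cannot be told apart.

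Within LRP1 KO, C1qa was listed at 2.47, 11.2, 1.08 and 12.1 FPKM and Vsig4 at 0.00811, 0.256, 0.00789 and 0.278 FPKM in libraries 1 to 4, both mentioned after their values were seen. Libraries 2 and 4, the highest in both macrophage genes, were also the highest in H2-Ab1. Other macrophage markers such as C1qb and Lyz2 were highest in these libraries too, but Marco, Cd14, Mertk and Fcgr1 were not. The source of H2-Ab1 was not tested. Cd74 and H2-Aa had their highest LRP1 KO values in library 1.

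Of 9 markers shared by leukocytes, 8 were tested, and the 9 had a summed level of 9.04 to 15.3 FPKM in WT and 50.7 to 101 FPKM in LRP1 KO. Of the 8, 1 had no WT library at 1 FPKM and so passed the filter through LRP1 KO, namely Cd52, at 0.126 to 0.174 FPKM in WT and 1.79 to 3.16 FPKM in LRP1 KO. Of the other 7, 6 rose and 0 fell, with a median log2 difference of 1.66, while 6.27% of all tested genes rose and 7.31% fell. Ptprc, which encodes CD45, was below the filter at 0.0316 to 0.161 FPKM in WT and 0.403 to 0.860 FPKM in LRP1 KO. Tyrobp, Fcer1g, Laptm5 and Lcp1, genes of myeloid and other leukocytes, rose by 2.52, 2.43, 2.36 and 1.66 (limma adjusted p from 0.000448 to 0.000758).

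Most markers of dendritic cells and B cells were below 1 FPKM. Of 9 dendritic markers 1 was tested and 6 were under 1 FPKM in every library, of which 2 were at 0 throughout, and the summed level was 3.31 to 4.32 FPKM in WT and 3.29 to 3.95 FPKM in LRP1 KO. Most of that sum was Zbtb46, which endothelial cells also express, at 2.34 to 3.05 and 2.19 to 2.71 FPKM (log2 difference -0.09, limma adjusted p 0.497). Flt3 was at 0 in WT and at most 0.0119 FPKM in LRP1 KO. Below the filter, 3 dendritic markers had separate groups and are mentioned after their values were seen. Itgax, also expressed by macrophages, was at 0.0537 to 0.166 FPKM in WT and 0.458 to 1.02 FPKM in LRP1 KO, and Ccr7 at 0 to 0.00756 and 0.0264 to 0.0414 FPKM (limma adjusted p 0.0146 and 0.0238 without a filter). Batf3 was lower in LRP1 KO, at 0.430 to 1.36 and 0.123 to 0.424 FPKM, and did not pass (limma adjusted p 0.0951 without a filter). Of 10 B cell markers 1 was tested and 3 were at 0 in all libraries. Cd79a reached 0.0786 FPKM, and Cd22 had separate groups at 0 to 0.0489 FPKM in WT and 0.0564 to 0.169 FPKM in LRP1 KO (mentioned after its values were seen). Ebf1, which other cells also express, was the one tested, at 2.70 to 5.88 FPKM in WT and 3.27 to 6.07 FPKM in LRP1 KO (log2 difference 0.08, limma adjusted p 0.820). The summed B cell level, most of it Ebf1, was 2.81 to 5.96 and 3.44 to 6.18 FPKM. Of 7 T cell markers 0 were tested and 3 were at 0 in all libraries, with sums of 0.153 to 0.656 and 0.243 to 0.729 FPKM.

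The labelled cell type was checked in the same way. Cdh5 was at 8.87 to 11.2 FPKM in WT and 47.3, 21.5, 33.9 and 8.56 FPKM in LRP1 KO, and Pecam1 at 6.80 to 8.76 and 36.3, 18.5, 26.2 and 6.72 FPKM, so LRP1 KO library 4 was below the WT range of both. Of 17 endothelial markers 15 were tested and 1 rose, Eng (0.94, limma adjusted p 0.0279), which lost its call in every fit without 1 library except that without LRP1 KO 4 (0.81 to 1.20 over the 8). The share called, 6.67%, was below the 13.6% over all tested genes, while the median log2 difference of the list was 0.70. Without LRP1 KO library 4, 13 of the endothelial markers were called. Their summed level was 172 to 188 FPKM in WT and 179 to 624 FPKM in LRP1 KO. The 7 fibroblast markers summed to 2320 to 3500 and 1940 to 3080 FPKM, and 2 of them fell, Dpt (-2.01) and Pdgfra (-0.96), each held only without LRP1 KO 4 among the fits without 1 library (-2.50 to -1.54 and -1.22 to -0.77). That is 28.6% of the list, beside 13.6% called over all tested genes. The libraries thus held much RNA of fibroblast marker genes beside that of endothelial marker genes. Which cells made it, and the part of such cells in the class II values, was not tested.

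For the series as a whole, Lrp1 was at 103 to 140 FPKM in WT and 2.79 to 7.72 FPKM in LRP1 KO (log2 difference -4.45, SE 0.23, limma adjusted p 8.89e-05), as labelled. On the first principal component (60.8% of the variance) LRP1 KO library 4 stood apart at 0.102, with the other LRP1 KO libraries at 17.2 to 27.3 and WT at -24.1 to -12.9. Across all genes, 1547 of 11389 tested were called, 184 of them with at least a 2-fold change, and without LRP1 KO library 4 the count was 3021. Without that library the difference was -0.34 for H2-DMb1 (adjusted p 0.0880), 0.14 for H2-DMa (0.395) and 0.14 for H2-Ab1 (0.625), so no member was called then either.

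Genes whose level followed the mean log2(FPKM + 1) of H2-DMa and H2-DMb1 most closely over the 8 libraries were Ints5, Rbm22, 1500012F01Rik, Trafd1 and Irf2bp1, with Pearson r from 0.954 to 0.967. After subtraction of each group's mean they were Ilkap, Ddx41, Zkscan5, E4f1 and 4930455F23Rik, with r from 0.977 to 0.982. These are descriptions over 8 libraries that share one normalization, picked as the highest of all tested genes. None of the 10 is in the lists of class II, antigen processing or interferon genes examined here.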

How the data were processed

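RNA sequencing was analysed in 8 libraries, grouped by their titles into WT and LRP1 KO (n = 4 each). The authors deposited 1 table of FPKM values, whose header names no unit. The submitters' processing notes name TopHat2, Cufflinks and mm10 without role or order, so the unit was taken from Cufflinks. The study's methods describe trimGalore, STAR, featureCounts and edgeR, whose counts this table does not hold. The columns had nearly the same sorted values (sums 503571 to 504112), so they were quantile normalized, a step not given in the sources used here. Depth is therefore unknown, counting error cannot be given, and shifts of total RNA are not visible.

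Values were analysed as log2(FPKM + 1), which understates changes of low genes. Genes with at least 1 FPKM in at least 4 libraries (11389 of 22520) were tested with limma 3.58.1 (R 4.3.3), with group as the only term, moderated variances that follow the mean level and Benjamini-Hochberg adjustment over all tested genes. Single members were also compared by an exact two-sided permutation test over 70 arrangements of the libraries. The script was tested on simulated data. Positions came from GENCODE M21 (GRCm38) by Ensembl identifier (21740 matched) and promoter windows from RefSeq.

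The members, lists and rules were chosen with earlier results of these data known. Genes named are the 7 members, Lrp1, the called genes of each list with the 4 largest changes, defining markers, and the 5 genes most like the tested members. Some genes that this rule names are left out of the text. Irf8, Nlrc5 and the E alpha genes were not analysed here. Alternatives were a pseudocount of 0.1, no filter, rescaling by median ratio, a replicate block, array weights, covariates for the macrophage and endothelial lists, and leaving out each library. The macrophage covariate did not overlap between the groups, so a call lost or an estimate turned with it does not tell what caused the difference.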

Additional observations from a re-analysis of the deposited data

Results flagged for a closer look

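In 72 groups of 4 libraries, covering 38 genes, the gap of the highest or lowest library to its nearest neighbour was compared with the range of the group, and a gap above Dixon's critical value was marked. Chance alone marks about 1 group in 20, and 2 were marked. H2-DMa stood high in WT library 2, at 2.83 FPKM against 1.83 to 2.0 FPKM in the other 3 WT libraries. Without that library the H2-DMa difference was 0.22 (limma adjusted p 0.143). Cd80 stood low in the same library, at 1.28 FPKM against 1.52 to 1.56 FPKM in the other 3, and without it the rise was 0.48 (limma adjusted p 0.0772).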

How the results depend on the processing

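Over 15 alternatives no class II member was called, and the lowest adjusted p of a member was 0.0880 (H2-DMb1 without LRP1 KO library 4). Of 90 recomputed member values 85 kept their direction. With the macrophage covariate H2-Ab1 was -0.63 and Spi1 -0.37. With the endothelial covariate H2-Eb1 was 0.0764 and Cd74 -0.12. H2-Eb1, at -0.01, was 0.00240 without WT library 1 and 0.0373 without LRP1 KO library 1, in a range of -0.0442 to 0.0373 without 1 library. The cause of these turns was not tested. The count of called genes, 1547, was 3003 with array weights, 365 with the macrophage covariate, 164 with the endothelial covariate and 512 to 3021 without 1 library. That with a 2-fold change, 184, was 282 with array weights, 93 with the endothelial covariate and 133 to 339 without 1 library. The split of 714 higher and 833 lower became 825 and 743 after rescaling. With the replicate block 1013 genes were called. Whether the numbers pair the libraries is not known. In deviations from the group means, LRP1 KO libraries 1, 2 and 3 each correlated best with the WT library of their number (r 0.158, 0.141 and 0.340). LRP1 KO library 4 correlated best with WT library 2 (0.377) and had -0.312 with WT library 4. Of 330 values of 22 list genes, 233 kept direction and call, 96 lost the call and 1 reversed. Unknown depth limits the members below 1 FPKM most.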
